A study of Rattus norvegicus with 24 samples.

Results

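Prlr, Cyp2a1 and Sptssb are 3 genes whose RNA level in the adrenal gland differed widely between SHR, the spontaneously hypertensive rat strain, and WKY, the Wistar-Kyoto strain. They were picked by symbol from the 22864 genes of a rat RNA sequencing table because of that adrenal difference, so their adrenal values are given as a description and were not tested. What was tested is their level in the other tissues, their chromosomal neighbours and the genes of the pathways they belong to. SHR is an inbred strain with inherited high blood pressure, and WKY is the related strain commonly used as its control. All animals were 24 weeks old. RNA was measured in adrenal glands, left ventricles and superior cervical ganglia, the last being sympathetic ganglia of the neck, with 4 libraries for each strain and tissue. No treatment, transgene or sex is given in the labels. The labels do not say that libraries came from separate rats, so a p-value here speaks only for the spread among libraries, part of which may be technical.

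Prlr encodes the prolactin receptor, a single-pass cytokine receptor. Bound prolactin activates the kinase JAK2 on its intracellular tail, and JAK2 phosphorylates STAT5 proteins, which then act on transcription. The SOCS proteins and CISH, themselves targets of STAT5, damp this signal. Cyp2a1 encodes a cytochrome P450 best known from rat liver, where it hydroxylates testosterone and other steroids at the 7-alpha position with electrons from the P450 reductase Por. Sptssb encodes a small subunit of serine palmitoyltransferase, the enzyme that makes the first committed intermediate of all sphingolipids. The catalytic core of that enzyme is a dimer of Sptlc1 with Sptlc2 or Sptlc3. The small subunits Sptssa and Sptssb raise its activity and set its preference for acyl-CoA length, and the Ormdl proteins inhibit it.

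The start regions of Cyp2a1 and of its neighbour Cyp2a3 are shown because both genes had high adrenal RNA in WKY and low adrenal RNA in SHR, and the region of Prlr because it holds a STAT-type motif. Each sequence is the 250 bases before an annotated transcript start, taken from RefSeq on the build GRCr8 and not from the rats sequenced here. The windows are chr1:91359028-91359277 for Cyp2a1, chr1:91299334-91299583 for Cyp2a3 and chr2:60909409-60909658 for the second of 2 annotated Prlr starts, all on the plus strand and written 5′ to 3′. Capitals mark matches to TATAAA, to CAAAGNCCA, a motif of the HNF4 type, to TTGCNNAA, a motif of the C/EBP type, and to TTCNNNGAA, a motif of the STAT type.
Cyp2a1: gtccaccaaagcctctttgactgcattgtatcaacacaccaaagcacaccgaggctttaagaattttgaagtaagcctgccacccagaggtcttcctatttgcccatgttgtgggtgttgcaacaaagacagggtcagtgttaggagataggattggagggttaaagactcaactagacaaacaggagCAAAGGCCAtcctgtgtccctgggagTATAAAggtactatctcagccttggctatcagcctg
Cyp2a3: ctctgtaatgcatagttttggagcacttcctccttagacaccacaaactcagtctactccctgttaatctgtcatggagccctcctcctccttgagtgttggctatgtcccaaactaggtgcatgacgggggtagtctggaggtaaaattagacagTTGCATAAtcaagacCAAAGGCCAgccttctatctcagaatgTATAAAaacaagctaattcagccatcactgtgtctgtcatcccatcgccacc
Prlr, second start: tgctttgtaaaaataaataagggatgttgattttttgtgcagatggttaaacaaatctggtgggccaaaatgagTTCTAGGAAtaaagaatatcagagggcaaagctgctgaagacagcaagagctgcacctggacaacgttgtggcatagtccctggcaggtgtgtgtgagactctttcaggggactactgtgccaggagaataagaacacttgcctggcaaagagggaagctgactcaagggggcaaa

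The Cyp2a1 and Cyp2a3 windows had the same base at 138 of 223 aligned positions, and their longest shared run was the 9 bases CAAAGGCCA. In Cyp2a1 this run lay 62 to 54 bases before the start and the TATAAA match 36 to 31 bases before it. In Cyp2a3 the run lay 79 to 71 bases and the TATAAA match 52 to 47 bases before the start, with a TTGCATAA match further upstream. The STAT-type match of Prlr lay 176 to 168 bases before its second start. CAAAGNCCA was searched after the shared run had been read in these windows. How often other pairs of windows share as many positions or as long a run was not computed. Among 33469 RefSeq windows of this length, 1.53% held CAAAGNCCA, 9.22% TTGCNNAA and 7.67% TTCNNNGAA on either strand, and 8.06% held TATAAA on the forward strand. The window of the first Prlr start and that of Sptssb held none of these motifs and no match to CAAGGNCA, a motif of steroidogenic factor 1 found in 5.58% of windows. The last motif was also absent from the 3 windows printed here. A match is a run of letters and no measured binding, and the gene-level values do not say which Prlr start was used.

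Prlr was highly expressed in the WKY adrenal gland. Levels are given as FPKM, fragments normalised to transcript length and library size, and the 4 WKY libraries were at 238.14, 206.03, 204.16 and 213.68, a mean of 216 ± 15.6 (SD, n = 4). The 4 SHR libraries were at 7.37, 8.91, 9.05 and 12.27, a mean of 9.40 ± 2.06 (SD, n = 4). Every WKY library stood far above every SHR library, and the ratio of the means was 22.9. All differences below are the SHR mean less the WKY mean of log2(FPKM + 1), and for Prlr this was -4.40 (SE 0.12). The SHR libraries still held Prlr RNA at a level well above that of any ventricle or ganglion library. In a bulk sample like these, fewer cells of a type and less RNA per cell cannot be told apart.

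Cyp2a1 was at 55.85, 37.68, 43.12 and 23.23 FPKM in the WKY adrenal libraries, a mean of 40 ± 13.5 (SD, n = 4). In SHR it was at 0.22, 0.33, 0.11 and 0.22 FPKM, a mean of 0.220 ± 0.0898 (SD, n = 4). The strains did not overlap, the ratio of means was 182 and the log2 difference was -5.01 (SE 0.22). The WKY libraries spread more for Cyp2a1 than for Prlr, with the highest at over double the lowest, and every SHR library was below 1 FPKM. Cyp2a1 therefore passed the filter of at least 1 FPKM in at least 4 of the 8 adrenal libraries through the WKY libraries alone.

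Sptssb went the other way. Its level in the SHR adrenal gland was 51.17, 50.58, 107.02 and 47.61 FPKM, a mean of 64.1 ± 28.7 (SD, n = 4). In WKY it was 1.91, 1.27, 1.31 and 1.42 FPKM, a mean of 1.48 ± 0.295 (SD, n = 4). The strains did not overlap, the ratio of means was 43.4 and the log2 difference was 4.64 (SE 0.24). The high value belonged to SHR replicate 3, and without that library the difference was 4.36.

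**Figure D1:**
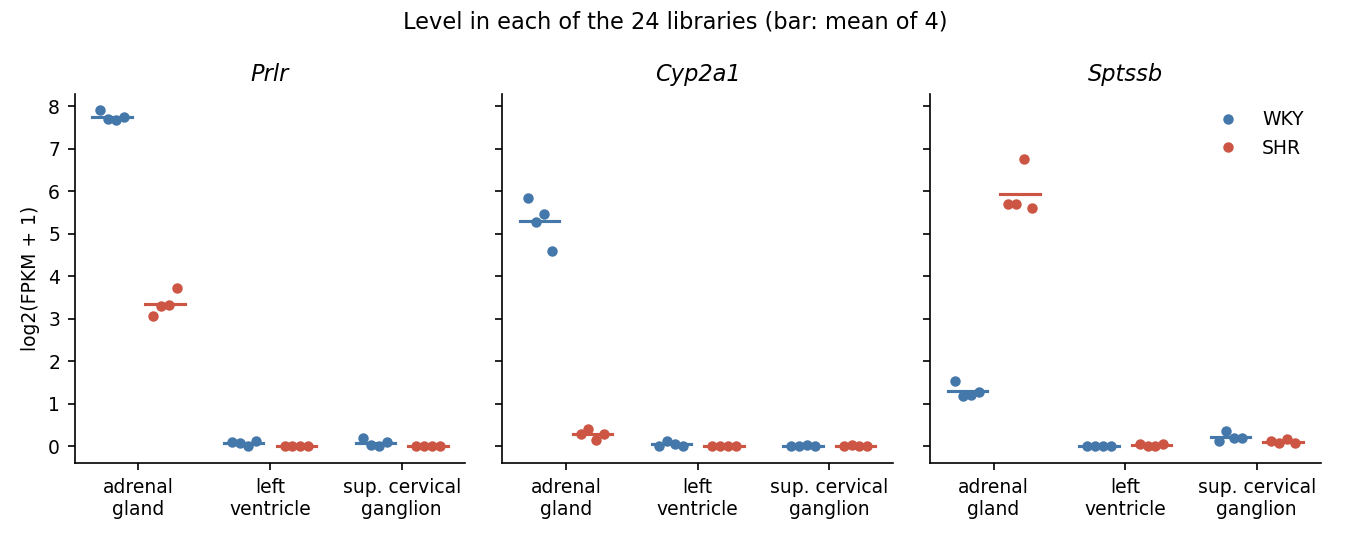
Level of Prlr, Cyp2a1 and Sptssb as log2(FPKM + 1) in each of the 24 libraries, by tissue and strain, with a bar at the mean of 4. The adrenal libraries of the strains lie far apart for each gene, with WKY above SHR for Prlr and Cyp2a1 and SHR above WKY for Sptssb, and all ventricle and ganglion libraries lie near 0.

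By size of the log2 difference, Cyp2a1 ranked 6, Sptssb 10 and Prlr 16 among the 12589 genes tested in the adrenal gland, where 22 genes differed by at least 4, with 11 in each direction. Of all these genes, 41.2% passed the threshold of the limma fit (Benjamini-Hochberg adjusted p below 0.05), and in 39.4% the libraries of the strains did not overlap. The authors' deposited table gives adrenal log2 ratios of SHR over WKY of -4.33 for Prlr, -7.54 for Cyp2a1 and 5.52 for Sptssb, the contrast the genes were picked on. How those ratios were computed is not stated. The pseudocount of 1 used here shrinks differences of genes that are low in 1 strain, and with 0.1 the difference was -6.95 for Cyp2a1 and 5.28 for Sptssb. In the same deposited table no q-value of the 3 genes in the ventricle or the ganglion was below 0.458.

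**Figure D2:**
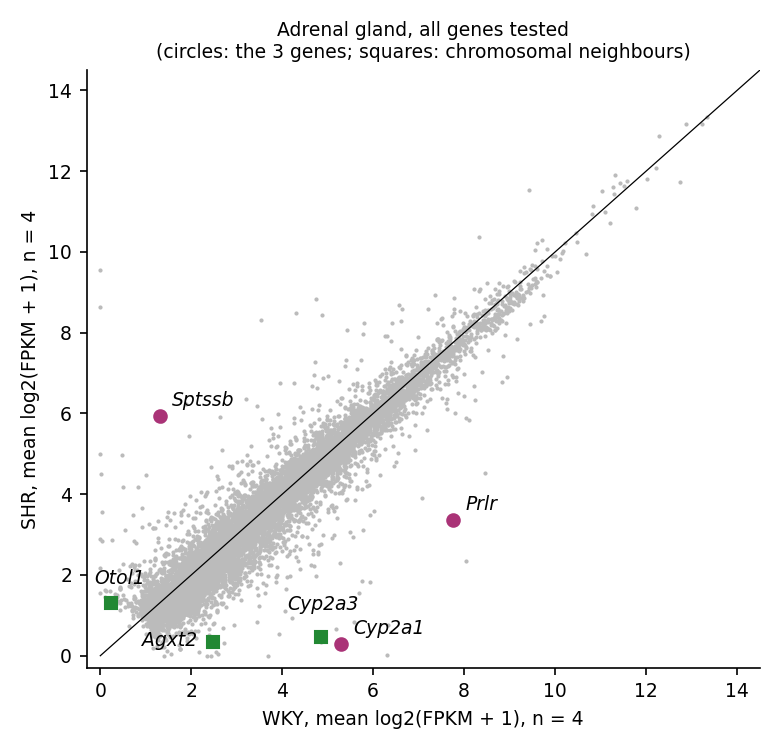
Mean log2(FPKM + 1) of the 4 SHR adrenal libraries against that of the 4 WKY adrenal libraries for the 12589 genes tested, with the line of equal levels. Prlr, Cyp2a1 and Sptssb (circles) lie far from the line, as do the neighbouring genes Cyp2a3 and Agxt2 (squares), while Otol1 lies at low levels just above it.

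Outside the adrenal gland the RNA of all 3 genes was at or near 0. Prlr was listed at 0 in every SHR library of the ventricle and of the ganglion. In WKY it was at 0.07, 0.05, 0 and 0.09 FPKM in the ventricle and at 0.14, 0.02, 0 and 0.08 in the ganglion. Because 1 WKY library of each tissue was also at 0, the strains overlapped in both; no overlap was seen for 24.8% of tested ventricle genes and 17.2% of tested ganglion genes. The 2-sided exact permutation p was 0.143 in each (adjusted p = 0.286 over the 6 tests). Cyp2a1 was above 0 in 2 WKY libraries of the ventricle, at 0.09 and 0.04 FPKM, and in 1 ganglion library of each strain, at 0.03 FPKM. Its exact permutation p was 0.429 in the ventricle and 1 in the ganglion (adjusted p = 0.514 and 1).

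Sptssb was listed at 0 in the 4 WKY ventricle libraries and at 0.04, 0, 0 and 0.04 FPKM in SHR (exact permutation p = 0.429, adjusted p = 0.514). In the ganglion it was at 0.1, 0.05, 0.12 and 0.05 FPKM in SHR and at 0.1, 0.28, 0.15 and 0.15 in WKY. The log2 difference there was -0.11, opposite in sign to the adrenal gland, and the libraries overlapped (exact permutation p = 0.0857, adjusted p = 0.286). None of the 6 tests passed, and none had an unadjusted p under 0.05. With 70 ways to assign 8 libraries the smallest p possible is 0.0286. After adjustment over the 6 tests, 1 test with fully separated libraries could not have passed on its own. A limma fit with no filter on low values called 0 of the 6 as well, with adjusted p between 0.143 and 1, where 21.2% of ventricle genes and 10.8% of ganglion genes passed the filtered fit. Values this low cannot show that the strains were alike, since the number of fragments behind them is unknown.

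Ordered by level, each gene was highest in an adrenal group and second highest in the other adrenal group, and neither of these overlapped the next group. For Prlr and Cyp2a1 the 4 lower groups overlapped their neighbours in the order. For Sptssb the ganglion groups overlapped each other and were above both ventricle groups, which also overlapped each other.

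Nearby genes were examined in the gene order of the RefSeq table for GRCr8, taking the 2 nearest measured genes on either side of each. Not all are adjacent, since 5 genes without values lie between Prlr and both Spef2 and Il7r. Such genes also number 13 between Sptssb and Si, and 1 between Sptssb and both Nmd3 and RGD1563620. Between Cyp2a1 and LOC103691072 there are 3, and between Cyp2a1 and Cyp2f4 there are 2. Prlr and Sptssb lie on chromosome 2 and Cyp2a1 on chromosome 1. Of these 12 neighbours, 6 were expressed enough to test in the adrenal gland, where 2 were lower in SHR, 1 was higher and 3 did not pass, in a gland where 41.2% of all genes tested passed. The 3 that passed had entered the test through the libraries of 1 strain alone, being below 1 FPKM in every library of the other. Cyp2a3, a P450 of the same subfamily known from nasal and lung tissue, lies next to Cyp2a1. It was at 33.86, 27.12, 34.45 and 18.49 FPKM in the WKY adrenal gland and at 0.19, 0.59, 0.3 and 0.44 in SHR. The strains did not overlap, and the difference was -4.39 (SE 0.19, limma adjusted p = 4.20e-07). Cyp2a1 and Cyp2a3 are close paralogs, and the sources used here do not say how fragments matching both were divided, so the separate level of each is uncertain. Cyp2a2, the next gene on the other side and another liver P450, was at 0.0200 FPKM or below on average in every group, and Cyp2f4 beyond it was below 1 FPKM. LOC103691072, on the far side of Cyp2a3, was too low to test, at 0.955 FPKM in SHR and 0.245 in WKY.

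Agxt2, which encodes a mitochondrial aminotransferase of glyoxylate and dimethylarginine metabolism, follows Prlr. It was at 3.73, 4.29, 4.4 and 6.07 FPKM in the WKY adrenal gland and at 0.26, 0.29, 0.16 and 0.35 in SHR, without overlap (difference -2.14, SE 0.13, limma adjusted p = 3.94e-06). The next gene, Dnajc21, a co-chaperone gene, was at 12.2 and 12.7 FPKM and did not pass (difference -0.03, adjusted p = 0.878), and Spef2 and Il7r before Prlr were below 1 FPKM in both strains. Otol1, which encodes an inner ear otolith protein, follows Sptssb and was higher in SHR, at 1.15, 1.4, 2.42 and 1.11 FPKM against 0.41, 0.11, 0.19 and 0.03 (difference 1.07, limma adjusted p = 0.00105). SHR replicate 3 held the highest value of Otol1, as it did of Sptssb. Nmd3, a ribosome export factor gene on the other side of Sptssb, was at 18.6 and 20.5 FPKM and did not pass (difference -0.14, adjusted p = 0.233), although it did without SHR replicate 3 (difference -0.23, adjusted p = 0.0184). RGD1563620, beyond Nmd3, did not pass (0.21, adjusted p = 0.361), and Si, beyond Otol1, was listed at 0 in the adrenal libraries.

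**Figure D3:**
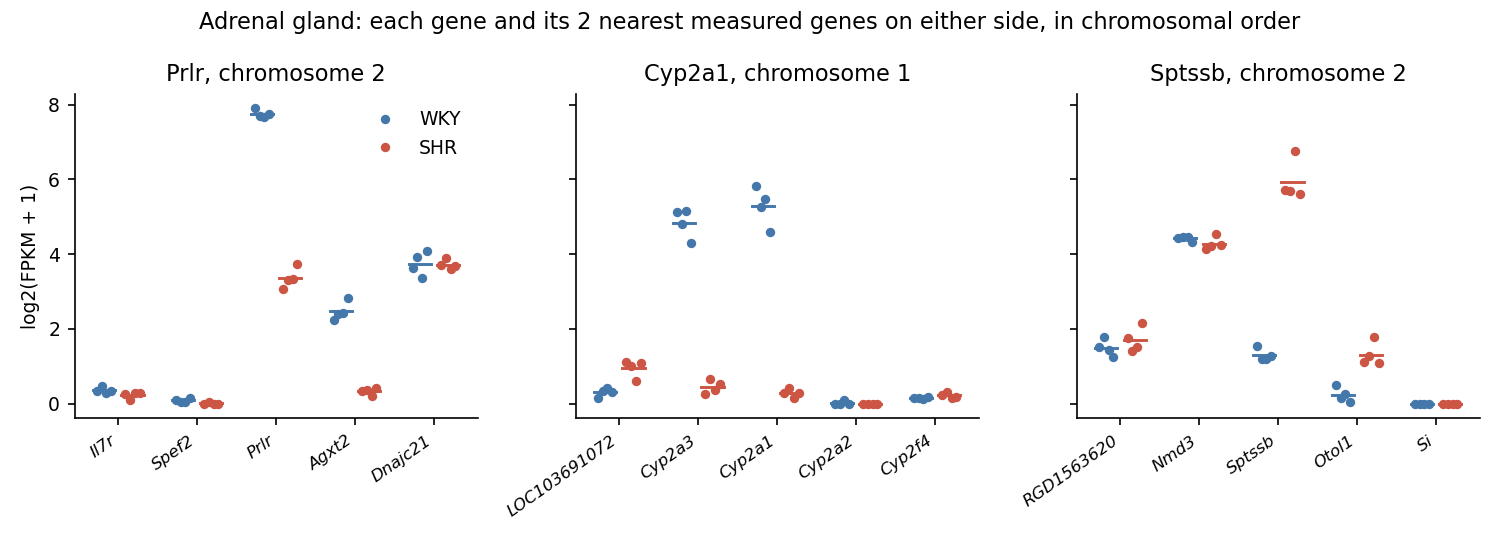
Level in the adrenal gland, as log2(FPKM + 1), of Prlr, Cyp2a1 and Sptssb and of the 2 nearest measured genes on either side in chromosomal order, with a point per library and a bar at the mean of 4. Cyp2a3 and Agxt2 lie lower in SHR beside Cyp2a1 and Prlr, and Otol1 lies higher in SHR beside Sptssb.

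The genes whose pattern over the 24 libraries was most like that of each of the 3 were found by the Pearson correlation of log2(FPKM + 1) among 14681 genes. This likeness includes the adrenal contrast that the genes were picked on, and the libraries share tissue and strain, so it is a description with no test. Closest to Prlr were RGD1561445 (0.994), Tex12 (0.991), LOC681458 (0.990), Prr32 (0.990) and the interleukin 23 receptor gene Il23r (0.989). Il23r had adrenal means of 28.5 FPKM in WKY and 5.79 in SHR and means of at most 0.0175 elsewhere. All 5 kept an adrenal level above 1 FPKM in SHR, as Prlr did.

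Closest to Cyp2a1 were Cyp2a3 (0.998), Serpinc1 (0.995), Bhmt (0.992), LOC688691 (0.992) and LOC103693423 (0.991). Serpinc1 encodes antithrombin, a plasma inhibitor of clotting proteases made mainly in liver, and was at 78.7 ± 6.86 FPKM in the WKY adrenal gland and 0.0200 ± 0.0231 in SHR (SD, n = 4). Bhmt, a liver and kidney enzyme gene of methionine metabolism, was at 4.86 ± 0.857 and 0.0675 ± 0.0287. Because several of these genes are known from liver, 14 hepatocyte markers were read in the same libraries. Their summed level was 335 to 500 FPKM in WKY and 238 to 332 in SHR, nearly all of it hemopexin (Hpx), at 416 and 271. Albumin (Alb) was at 0.348 and 0.177 FPKM on average, Ahsg and Tat were listed at 0 in all 8 adrenal libraries, and 10 markers in WKY and 11 in SHR were below 1 FPKM in every library.

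Closest to Sptssb were Vil1 (0.994), Gpr50 (0.990), Unc13c (0.986), its neighbour Otol1 (0.981) and Izumo1r (0.980). Vil1, the gene of the microvillus actin-bundling protein villin, was at 21.9 ± 6.96 FPKM in the SHR adrenal gland and 1.02 ± 0.217 in WKY (SD, n = 4). Its ganglion means were 0.335 in SHR and 0.185 in WKY, below the filter and not tested. The ganglion libraries of the strains did not overlap for Vil1, nor did they for 17.2% of tested ganglion genes.

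Prlr shares its signalling route with the growth hormone receptor. Of 28 tested genes of a list of that route, 13 were higher and 4 lower in the SHR adrenal gland, that is 60.7% past the threshold against the 41.2% of all adrenal genes (16.5% higher and 24.7% lower). Over all adrenal genes this split was 2073 higher and 3108 lower, and 2822 and 2479 after median-of-ratios scaling of the libraries. The median difference of the list was 0.25, and -0.04 over all genes tested. Without WKY replicate 3 the counts were 8 and 3. Prl, the gene of the ligand, was below 1 FPKM in every library. Ghr, the growth hormone receptor gene, had a mean of 52.9 ± 4.0 FPKM in SHR against 30.3 ± 5.36 in WKY (difference 0.80, SE 0.12, limma adjusted p = 6.88e-04). The level of Ghr in SHR, 47.71 to 57.17, was above that of Prlr in every SHR adrenal library, and in WKY Ghr, at 24.59 to 34.86, was below Prlr in every library. FPKM is scaled to transcript length, but levels of different genes compare only roughly, since the transcripts used are not known here.

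Downstream of the receptors, Jak2 had a mean of 39.2 ± 19.5 FPKM in SHR against 12.5 ± 0.537 in WKY, with SHR libraries from 18.81 to 65.05 and no overlap (difference 1.44, SE 0.32, limma adjusted p = 0.00866). Stat5a was also higher (0.48, adjusted p = 0.00378), while Stat5b did not pass (0.15, adjusted p = 0.230). Of the feedback genes, Socs2 was at 9.58 ± 2.98 and 18.9 ± 4.11 FPKM, lower in SHR with overlapping libraries (-0.93, SE 0.23, adjusted p = 0.0134), and Cish was at 8.83 ± 8.51 and 7.32 ± 3.48 and did not pass (-0.02, SE 0.55, adjusted p = 0.977). The list genes with the smallest adjusted p were the phosphatase gene Ptpn6 (-0.94), Ghr, the ubiquitin ligase gene Btrc (0.44) and the exchange factor gene Sos1 (0.46).

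In the ventricle 5 of 29 tested genes of this list were higher and 3 lower, or 27.6% against 21.2% of all ventricle genes (9.20% higher and 12.0% lower). Stat3 (0.36), Jak2 (0.44) and the insulin receptor substrate gene Irs2 (0.55) were higher and Stat5b (-0.43, SE 0.07, limma adjusted p = 0.00199) lower. Jak2 and Irs2 did not pass in a joint fit of all 24 libraries (adjusted p = 0.126 and 0.270). Cish, at a difference of 0.48 (adjusted p = 0.490), passed without SHR replicate 3 (0.95, adjusted p = 0.00444). In the ganglion 3 of 27 were higher and none lower, or 11.1% against 10.8% of all ganglion genes (6.37% higher and 4.43% lower). These 3 were Src (0.21), Stat3 (0.15) and Socs3 (0.34). Src and Socs3 did not pass in the joint fit (adjusted p = 0.299 and 0.546), and Socs3 was lost on leaving out SHR replicate 2 or 4 or WKY replicate 1, 2 or 3 (adjusted p = 0.0632 to 0.0796).

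The other genes of the enzyme that Sptssb belongs to were read in the same adrenal libraries. Sptssa, the other small subunit, had a mean of 34.0 ± 2.24 FPKM in SHR against 36.2 ± 4.79 in WKY (difference -0.08, SE 0.09, limma adjusted p = 0.508). Every SHR adrenal library held Sptssb above the range of Sptssa, 32.03 to 37.1, and every WKY library held it below the Sptssa range of 31.17 to 42.48. Of 6 tested genes of the complex and its regulators besides Sptssb, 2 were higher in SHR and none lower, or 33.3% against 41.2% of all adrenal genes. Sptlc1, which pairs with the catalytic subunit, was at 36 ± 0.719 and 30.1 ± 0.873 FPKM (0.25, SE 0.05, adjusted p = 0.00271). Sptlc2, the catalytic subunit, was at a mean of 15.9 FPKM in both strains (0.00, SE 0.08, adjusted p = 0.994), and Sptlc3, the alternative catalytic subunit, was near 0 in every group.

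Ormdl1, an inhibitor of the enzyme, was at 44.9 ± 10.4 FPKM in the SHR adrenal gland and 12.9 ± 1.44 in WKY, without overlap (difference 1.70, SE 0.14, limma adjusted p = 4.05e-05). Ormdl2 did not pass (-0.06, adjusted p = 0.552). Ormdl3 did not pass either (0.15, adjusted p = 0.126), but did after median-of-ratios scaling of the libraries (0.22, adjusted p = 0.0310). In the ganglion Ormdl1 was again higher, at 16.0 ± 0.894 and 10.4 ± 0.907 FPKM (0.58, SE 0.07, limma adjusted p = 3.49e-04), and in the ventricle it was at 17.8 ± 3.30 and 15.1 ± 1.91 and did not pass (0.21, adjusted p = 0.267).

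Other calls on this enzyme outside the adrenal gland lay close to the threshold. Sptlc1 was higher in the SHR ganglion (0.18, limma adjusted p = 0.0408), which left 2 of 6 genes higher there, or 33.3% against 10.8% of all ganglion genes, but its adjusted p was 0.0510 to 0.109 with median-of-ratios scaling, with no filter and without any single library but SHR replicate 4. In the ventricle Sptssa was lower (-0.24, adjusted p = 0.0385) as the 1 called gene of 6, or 16.7% against 21.2% of all ventricle genes, and its adjusted p was 0.0503 to 0.102 without any single SHR library, without WKY replicate 1 or 2 and with no filter. Sptlc2 did not pass in the ventricle (0.50, adjusted p = 0.0525) and did without SHR replicate 2 (0.68, adjusted p = 2.25e-04), after median-of-ratios scaling or quantile normalization (adjusted p = 0.0469 and 0.0461) and in the joint fit (adjusted p = 0.00277), where 2 genes of the complex were higher and 1 lower.

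**Figure D4:**
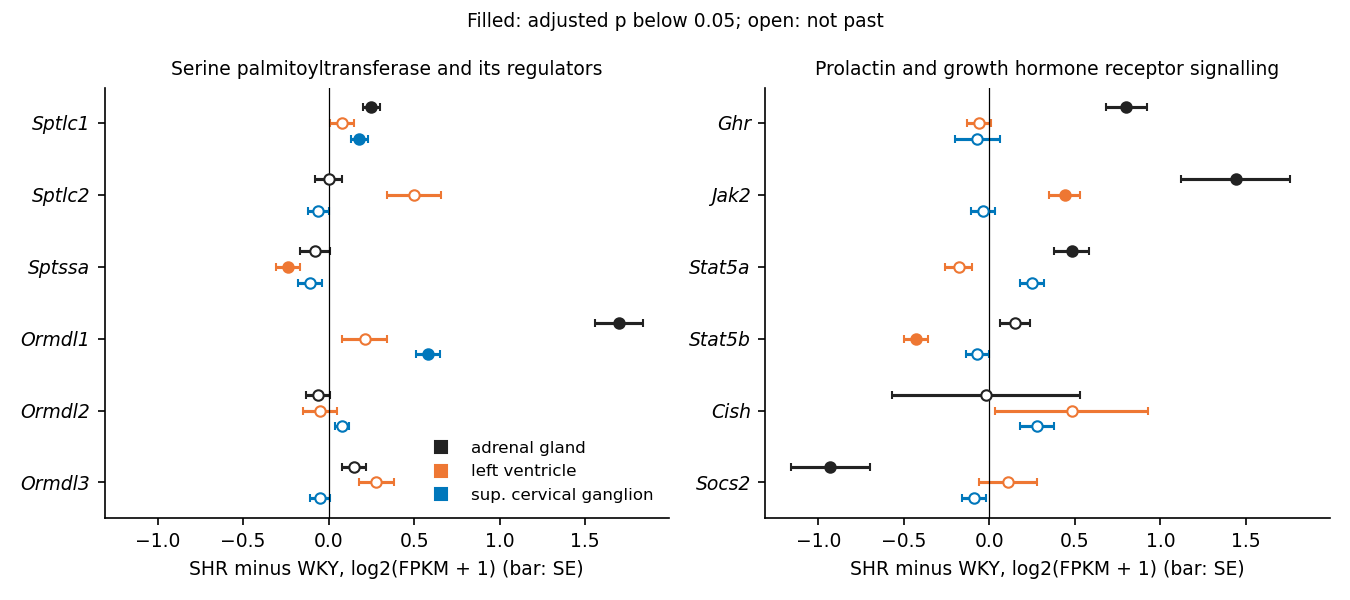
SHR mean less WKY mean of log2(FPKM + 1), with its SE, for genes of serine palmitoyltransferase and its regulators (left) and of prolactin and growth hormone receptor signalling (right) in the 3 tissues; filled points have a limma adjusted p below 0.05. Ormdl1 and Jak2 lie farthest to the right in the adrenal gland and Socs2 to the left, while Sptssa and Sptlc2 lie near 0 there.

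Further along sphingolipid synthesis, 4 of 17 tested adrenal genes were higher in SHR and 3 lower, or 41.2%, with 41.2% among all adrenal genes. The counts were 8 and 2 without SHR replicate 2, 7 and 2 after median-of-ratios scaling and 9 and 3 in the joint fit. Calls over all adrenal genes moved too, from 5181 to 5301 after that scaling and to 6627 in the joint fit. The joint fit filtered genes over all 24 libraries. The ganglioside synthase gene St3gal5 (0.58), the ceramide synthase gene Cers5 (0.46) and the ceramide transfer gene Col4a3bp (0.35) were higher. The ceramide synthase gene Cers1 was lower (-0.37, limma adjusted p = 0.00845), though not after quantile normalization (adjusted p = 0.0771). In the ventricle 4 of 16 were higher and none lower, or 25.0% against 21.2%. They included the sphingomyelin synthase gene Sgms2, with 2.79 ± 0.302 FPKM in SHR against 0.333 ± 0.0907 in WKY (1.51, SE 0.10, adjusted p = 9.08e-06), which entered the test through the SHR libraries alone, and St3gal5 (0.72). In the ganglion 1 of 20 passed, or 5% against 10.8%, namely Sgms1, which was lower (-0.38, adjusted p = 8.45e-04).

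Of 28 tested genes of sphingolipid breakdown and sphingosine 1-phosphate signalling, 8 were higher and 7 lower in the SHR adrenal gland, or 53.6% against 41.2%. Without SHR replicate 1 or WKY replicate 2 the counts were 5 and 4, and without WKY replicate 4 they were 5 and 5. The lysosomal enzyme genes Glb1 (0.68) and Smpd1 (0.77) were higher and the receptor gene S1pr1 lower, at 48.6 ± 5.47 and 85.6 ± 9.70 FPKM (-0.80, SE 0.10, limma adjusted p = 2.79e-04). In the ganglion 5 of 28 were higher and none lower, or 17.9% against 10.8% of all ganglion genes, led by Glb1 (0.89, SE 0.06, adjusted p = 6.60e-06), with 3 higher without WKY replicate 2 or 3 and 2 higher in the joint fit. In the ventricle 4 of 25 were higher and 2 lower, or 24.0% against 21.2% of all ventricle genes. These included the sphingosine kinase gene Sphk1 (0.85, higher) and the sphingomyelinase gene Smpd2 (-0.36, lower), and without SHR replicate 1 the counts were 2 and 1.

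Cyp2a1 is 1 of many Cyp2 genes of the rat. Of 27 others with values, 6 were tested in the adrenal gland, and 3 were lower in SHR, 2 higher and 1 did not pass, a share of 83.3% past the threshold against 41.2% of all adrenal genes. The lower genes were Cyp2a3, Cyp2t1, at 10.9 ± 1.5 and 31.3 ± 5.14 FPKM (-1.44, SE 0.12, limma adjusted p = 3.57e-05), and Cyp2j4 (-0.39). Cyp2j10 (1.04) and Cyp2u1 (0.33) were higher. Cyp2a3 and Cyp2j10 each entered the test through the libraries of 1 strain alone. In the ventricle 2 of 6 were lower, or 33.3% against 21.2% of all ventricle genes (12.0% lower), the ethanol-metabolising Cyp2e1, at 4.96 ± 2.45 and 28.7 ± 13.1 FPKM (-2.31, SE 0.39, adjusted p = 0.00636), and Cyp2d4 (-0.73). In the ganglion limma called 0 of 7, where 10.8% of all ganglion genes passed, and 2 of the 7 passed without WKY replicate 4. At an unadjusted limma p under 0.05 were 4 of the 7, a count for which the share over all ganglion genes is not given here.

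Genes that serve P450 enzymes differed by less than 1 on the log2 scale in the adrenal gland where they passed. Por, the electron donor, was at 218 ± 3.76 FPKM in the SHR adrenal gland and 174 ± 24.5 in WKY (0.33, SE 0.09, limma adjusted p = 0.0170). Cytochrome b5 (Cyb5a) was lower (-0.32, adjusted p = 0.00499), and Cyb5b and Cyb5r3 were higher, each by 0.62. In all, 4 of 9 tested partners and regulators were higher and 1 lower, or 55.6% against 41.2%. The gene of the liver factor HNF4-alpha, Hnf4a, was at 0 in SHR and 0.00250 FPKM in WKY on average. In the ventricle Por (-0.29) and Cyb5a (-0.24) were the only 2 of 10 past the threshold, both lower, a share of 20% against 21.2%. In the ganglion limma called 0 of 9, where 10.8% of all ganglion genes passed, and 1 of the 9 passed without WKY replicate 1. At an unadjusted limma p under 0.05 were 4 of the 9, again without a share over all ganglion genes to set beside it.

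Steroid-metabolising enzymes other than Cyp2a1 included further large adrenal differences. Akr1c14, a 3-alpha-hydroxysteroid dehydrogenase of dihydrotestosterone and progestin reduction, had a mean of 2.65 ± 0.830 FPKM in SHR against 52.9 ± 4.64 in WKY (-3.91, SE 0.15, limma adjusted p = 1.74e-07). Hsd11b1, which regenerates active glucocorticoid, was at 11.1 ± 1.83 and 64.0 ± 11 (-2.42, SE 0.14, adjusted p = 3.76e-06). Hsd17b12 (-0.62) and the 5-alpha-reductase gene Srd5a1 (-0.71) were lower as well. In this list 2 of 14 tested genes were higher and 5 lower, or 50.0% against 41.2%, with a median difference of -0.16. In the ventricle 1 of 8 passed, or 12.5% against 21.2%, namely Srd5a3, which was lower (-0.36), and 2 passed without WKY replicate 4. In the ganglion Srd5a3 (-0.43) and Hsd11b2 (-1.11) were lower and Hsd17b7 (0.27) and Hsd17b11 (0.30) higher, of 10 tested, or 40% against 10.8% of all ganglion genes. Hsd17b7 was lost without SHR replicate 2 or 4 and in the joint fit (adjusted p = 0.0506 to 0.552). Hsd17b11 was lost with no filter and without any single library but SHR replicate 2 and WKY replicate 4 (adjusted p = 0.0676 to 0.116).

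The libraries matched their labelled tissues. The 8 cardiomyocyte markers summed to 36086 to 39735 FPKM in the ventricle and the 9 sympathetic neuron markers to 7028 to 7629 in the ganglion. The Y-linked genes Eif2s3y and Kdm5d were above 0 in all 24 libraries. Of the same list, Ddx3y was at most 0.81 FPKM in any library and Usp9y at most 0.01. Several marker sums differed between the adrenal glands of the strains. The 9 cortex markers summed to 33526 to 35181 FPKM in SHR and 32185 to 34702 in WKY. Of these, Star (7547 and 5043 on average) and Mc2r (154 and 109) were higher in every SHR library than in any WKY library. Cyp11a1 (9202 and 9600), Fdx1 (2176 and 3514) and Mrap (310 and 434) were lower in every SHR library, and the strains overlapped for the others. The 4 zona glomerulosa markers summed to 2932 to 3435 and 2525 to 2710. Nearly all of the latter sum was Cyp11b2, at 3111 and 2490 on average, while Dab2 (43.9 and 63.8) and Wnt4 (20.5 and 33.8) were lower in every SHR library than in any WKY library and the strains overlapped for Agtr1b. The sum was lower in every SHR library than in any WKY library for 7 medulla markers (967 to 1709 and 2014 to 2316), 4 capsule markers (24.4 to 27.1 and 33.9 to 42.2), 9 leukocyte markers (118 to 186 and 276 to 379) and 6 endothelial markers (74.5 to 117 and 145 to 158). Among single genes tested in the adrenal gland, 39.4% had no overlap between the strains. Not every member of these lists separated. The strains overlapped for the medulla marker Chgb (316.33 to 511.82 and 492.76 to 587.17) and the capsule marker Rspo3. The sum of 12 immediate early genes was higher, at 804 to 2038 against 263 to 292, and SHR replicate 3, the highest for Sptssb, held the lowest of the SHR values. Junb (503 and 26.2 on average) and Nr4a1 (394 and 19.3) led this sum in SHR, and the strains overlapped for Fosl1 and Egr2. In the ventricle the 12 genes summed to 159 to 274 in SHR and 103 to 133 in WKY. There Fosl1 was lower in every SHR library (0.72 to 1.22 and 1.28 to 1.72), and the strains overlapped for Fosb, Jun, Egr1 and Ier2. Adipocyte markers summed to 10.9 to 70.2 and 22.8 to 157, with 70.2 in SHR replicate 3. Kidney markers summed to at most 3.82 FPKM, pancreas markers to at most 1.86 and Pik3c2g, a marker of the adrenal X zone of the mouse, to at most 0.0100 in any adrenal library. The part of these markers in the levels of Prlr, Cyp2a1 and Sptssb and of the listed genes was not tested, and cell makeup and strain cannot be told apart in whole glands.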

How the data were processed

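The authors deposited 1 table with a row per gene and FPKM values for 24 libraries, written with 2 decimals, together with log2 ratios of SHR over WKY and q-values per tissue, per the file headers. Per the labels' protocols, total RNA was extracted with Trizol, made into libraries with a KAPA RNA HyperPrep kit and sequenced on the BGISEQ-500. Tools named in the submitters' processing notes are DESeq2 1.4.5, RSEM 1.3.1 and Bowtie2, with Rnor_6.0 as the build. Of annotation, strand use and read numbers nothing is given in those sources. Depth is therefore unknown, precision rests on the spread of 4 libraries, and an exact 0 may be a failed estimate.

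Of 22864 genes, 2358 were blank in every library. Adrenal FPKM sums were 493051 to 517693, ventricle sums 533805 to 549167 and ganglion sums 455530 to 465993. Among genes at 1 FPKM or more in every library of a tissue, at most 0.509% had equal values in any pair of libraries of that tissue. Groups and replicate numbers come from the sample titles. Strains were compared within each tissue with limma 3.58.1 (R 4.3.3) on log2(FPKM + 1), with a prior variance trend and robust moderation, in genes at 1 FPKM or more in at least 4 of 8 libraries (12451, 12589 and 12987 genes in ventricle, adrenal gland and ganglion). The 2-sided p-values were adjusted by Benjamini-Hochberg over all genes of a tissue, with a threshold of 0.05. The 3 genes were below this filter in ventricle and ganglion and were compared there by exact permutation tests over 70 assignments. The fit was checked on simulated data.

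The genes, the 7 pathway lists and the 15 marker lists were chosen with earlier results of these data known. Named are the 3 genes, their neighbours, the 5 most similar genes of each, fixed genes of the lists, and up to 4 genes per list and tissue with the smallest adjusted p past the threshold. A few genes that this rule would name are in the counts but are not reported here. Marker genes are named where they lead their list, are at 0 or show how members of a list differ. Neighbour order, names and sequences come from RefSeq tables for GRCr8, a build other than that of the values. Alternatives were median-of-ratios scaling, quantile normalization, a pseudocount of 0.1, no filter, a joint fit of all tissues, a replicate block (for the 3 genes outside the adrenal gland together with no filter, added after the data were seen) and leaving out each library.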

Additional observations from a re-analysis of the deposited data

Results flagged for a closer look

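Within groups of 4 libraries, 3 of 24 groups examined held a library that stood far from the other 3. Chance alone gives about 1 in 20 groups, a rate that does not hold where only 1 library is above 0, as in the Cyp2a1 groups. Sptssb in adrenal SHR replicate 3 was at 107.02 FPKM, while the other 3 SHR libraries were between 47.61 and 51.17. Cyp2a1 was at 0.03 FPKM in ganglion WKY replicate 3 and at 0.03 in ganglion SHR replicate 2, with the other libraries of both groups at 0.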

How the results depend on the processing

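With a pseudocount of 0.1 in place of 1, the adrenal difference of Cyp2a1 was -6.95 and that of Sptssb 5.28. The joint fit of all 24 libraries called 9 pathway genes in the ganglion, where the fit of the ganglion alone called 15. Over all genes its ganglion calls were 1005, against 1402 in the fit of the ganglion alone. Its adrenal calls were 6627 against 5181, and its ventricle calls 3699 against 2644. Leaving out each library in turn, the adrenal difference ranged from -4.52 to -4.30 for Prlr, -5.24 to -4.83 for Cyp2a1 and 4.36 to 4.75 for Sptssb. For the 6 ventricle and ganglion tests the lowest adjusted exact p in these refits was 0.0857. It was reached by Prlr in both tissues without WKY replicate 3, where the strains did not overlap. The unadjusted exact p was there the smallest that the remaining libraries allow. The count of genes past the threshold was 4237 to 5237 for the adrenal gland (5181 with all libraries), 1906 to 2731 for the ventricle (2644) and 990 to 1252 for the ganglion (1402).

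Median-of-ratios scaling moved the adrenal split from 2073 higher and 3108 lower to 2822 and 2479, and the median difference of all adrenal genes from -0.04 to 0.03. Same-numbered libraries of the strains had correlated deviations of 0.00 to 0.23 (adrenal gland), -0.06 to 0.18 (ventricle) and -0.15 to 0.18 (ganglion), and 3 of 4, 3 of 4 and 1 of 4 SHR libraries were closest to the WKY library of their own number. The labels give no pairing, and whether the numbers mark one is not known. With a replicate block 2407, 5182 and 1206 genes passed in ventricle, adrenal gland and ganglion. Socs2 in the adrenal gland and Sptlc1 in the ganglion were among the lost calls (adjusted p = 0.0526 and 0.0783), and Sptlc2, Ormdl3 and Dnajc21 in the ventricle gained one (0.0343, 0.0195 and 0.0284). Over 1400 refitted values of 100 strain differences, each of 1 gene in 1 tissue, 48 lost and 16 gained their call. With a call, 0 changed direction. Many of these genes were counted in more than 1 tissue. The cause of these changes was not tested. Depth is unknown, so values near 0 set no limit on a difference.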
